A study of Mus musculus with 6 samples.

Results

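Conventional type 1 dendritic cells (cDC1) were sought among lung leukocytes of mice given lipopolysaccharide (LPS) or vehicle. They were selected on their own measured UMIs, and 212 of 64428 barcodes in 6 single-cell RNA libraries met the rule for them. The rule asked for at least 2 unique molecular identifiers (UMIs, each counted as 1 captured RNA molecule) of Xcr1 and Clec9a together and at least 5 UMIs of the MHC class II genes H2-Aa and H2-Ab1. It left out barcodes with S100a8 and S100a9 at 5% of UMIs or more, with more than 3 UMIs of C1qa, C1qb and C1qc, or with any UMI of Cd79a or Cd3e. A filter on quality, met by 61736 barcodes, required 200 genes or more and no more than 10% of UMIs from mitochondrial genes. The gated cells numbered 42 and 21 in the KO LPS libraries and 21 and 22 in the WT LPS libraries, against 65 in the KO vehicle library and 41 in the WT vehicle library.

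The study compared mice without functional Nos1 (Nos1-/-, called KO here), the gene of neuronal nitric oxide synthase, with wild-type (WT) mice. KO LPS and WT LPS mice received 10 mg/kg LPS into the peritoneum, KO vehicle and WT vehicle mice received vehicle, and the exposure lasted 4 h in all groups. Whole lungs were digested with enzymes and CD45-positive cells, the leukocytes, were taken with a magnetic positive-selection kit before droplet libraries were made. Strain background, age and sex are not given in the labels used here. It is not given either whether the 2 LPS libraries of a genotype came from different animals. Each vehicle group has a single library, so its own spread was not measured. In the main fits the p-values for genes rest on the spread between the 2 LPS libraries of each genotype. Part or all of that spread may be technical, and vehicle is taken to have the same spread.

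Dendritic cells of this lineage take up dead cells and present their antigens on MHC class I to CD8 T cells, which is called cross-presentation. The transcription factors IRF8 and BATF3 are needed for their development, XCR1 is their receptor for a chemokine of natural killer and CD8 T cells, CLEC9A binds material of dead cells, and TLR3 senses double-stranded RNA. When activated, such cells raise CCR7 and costimulatory proteins, move to the draining lymph node, and make interleukin 12 and ligands of the T cell chemokine receptor CXCR3. LPS itself is sensed through TLR4 with CD14 and MD-2.

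The label held well in vehicle lungs and in part in LPS lungs. Itgae, the CD103 integrin chain of lung cDC1 and not used to choose the cells, had a UMI in 28 of 42 and 12 of 21 gated cells of the KO LPS libraries and in 5 of 21 and 6 of 22 of the WT LPS libraries, against 58 of 65 in KO vehicle and 36 of 41 in WT vehicle. At least 1 of Itgae, Wdfy4 (needed for cross-presentation) and Naaa (a lysosomal amidase) was found in 40, 20, 20 and 22 gated cells of the LPS libraries and in all 65 and 41 of the vehicle libraries. The summed Itgae level, in plain counts per 1e6 UMIs of the gate (CPM), was 129.6 under LPS and 336 under vehicle, against 7.18 and 8.34 in cells gated on the type 2 (cDC2) markers Cd209a, Clec10a and Mgl2. In cells gated as mature dendritic cells on Ccr7 and Fscn1 it was 11.6 under LPS, and in B cells 0.592 under LPS and 1.86 under vehicle. Near the threshold the label was weaker under LPS: gated cells with exactly 2 UMIs of Xcr1 and Clec9a held 54.7 CPM of Itgae and barcodes with 1 UMI held 29.3, against 197 and 64.5 under vehicle. Cells with exactly 2 UMIs made up 12 of 42, 8 of 21, 10 of 21 and 16 of 22 gated cells of the LPS libraries, but 7 of 65 and 5 of 41 of the vehicle libraries.

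The gated cells were of 3 kinds, divided after their values were seen. Cells with at least 5 UMIs of Siglech, a surface lectin of plasmacytoid dendritic cells, numbered 13, of which 12 were in LPS libraries. Under LPS they held no Xcr1 UMI, with Clec9a at 210.4 plain CPM and Irf8 at 2272, so the cDC1 label did not hold for them. Ccr7-high cells, with at least 3 UMIs of Ccr7 and Fscn1 (the migration receptor and an actin-bundling protein of mature dendritic cells), numbered 56, of which 13 and 4 were in KO LPS and 14 and 20 in WT LPS. The other 143 were Ccr7-low. The label was weaker in the Ccr7-high cells of the LPS libraries, at 49.8 plain CPM of Itgae, 3.399 of Tlr3 and 105 of Irf8, against 263, 157 and 775 in Ccr7-low LPS cells. The mature dendritic cell gate had 11.6, 10.6 and 156 and the cDC2 gate 7.18, 12.8 and 206 of these genes under LPS, so in Ccr7-high cells Itgae was above both gates while Tlr3 and Irf8 were below both. The Tlr3 level rests on 3 UMIs. Wdfy4, Naaa and Batf3 were above both gates as well, at 139, 290 and 271 plain CPM in the Ccr7-high LPS cells. The mature dendritic cell gate had 36.3, 95.5 and 170 of these under LPS and the cDC2 gate 61.4, 211 and 142. Xcr1 and Clec9a, which chose the cells, were at 69.1 and 102 in the Ccr7-high LPS cells. WT LPS values of the gated cells therefore rest mostly on cells in which the label held in part. The division was mostly clear: 140 gated cells had no UMI of Ccr7 or Fscn1 and 49 had more than 5, with 15 cells at 1 or 2 and 8 cells at 3 to 5.

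The Ccr7-high share was lower in the KO LPS libraries than in the WT LPS libraries. Outside the Siglech cells, it was 34.2% and 22.2% of gated cells in the KO LPS libraries and 87.5% and 90.9% in the WT LPS libraries, against 7.81% in KO vehicle and 0 of 41 cells in WT vehicle. The exact 95% intervals (Clopper-Pearson, which cover counting error only) were 19.6% to 51.4% and 6.41% to 47.6% for KO LPS, 61.7% to 98.4% and 70.8% to 98.9% for WT LPS, 2.59% to 17.3% for KO vehicle and 0% to 8.60% for WT vehicle. The intervals treat the cells of a library as independent and do not measure variation between libraries or animals, so they do not compare the genotypes. Only 4 Ccr7-low cells remained in the WT LPS libraries against 39 in the KO LPS libraries. The same order was seen when cells were chosen without Xcr1 and Clec9a, by at least 1 UMI each of Itgae, Wdfy4 and Naaa: 35% and 30% were Ccr7-high in KO LPS and 70% and 81.8% in WT LPS, against 6.15% in KO vehicle and 2.17% in WT vehicle, in 40, 20, 10, 11, 65 and 46 cells. Of these, 26, 10, 3, 3, 57 and 36 were also members of the Xcr1/Clec9a gate, so the choices overlap. With 2 libraries a genotype no test was made of this share, which was examined because the cells' values had shown it.

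**Figure D1:**
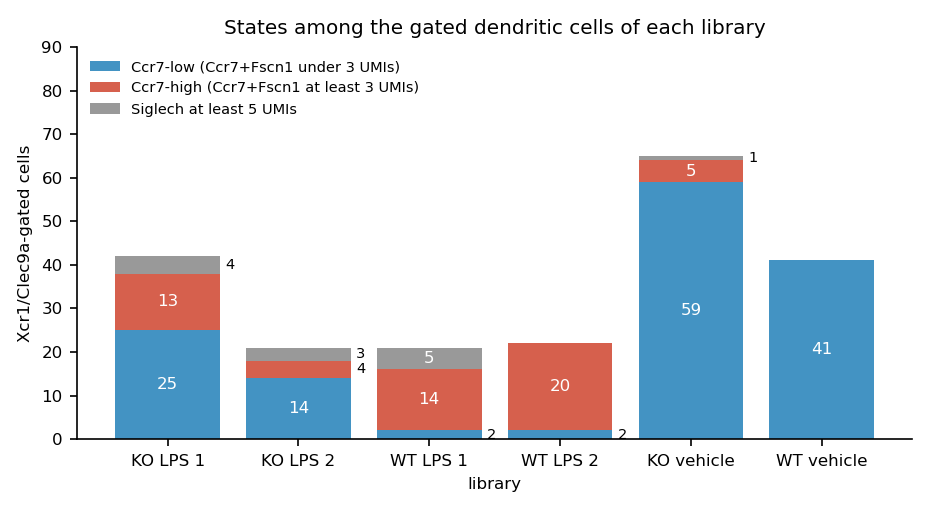
Number of Xcr1/Clec9a-gated cells (vertical axis) in each of the 6 libraries (horizontal axis), stacked by kind: Ccr7-low in blue, Ccr7-high in red and Siglech cells in grey. The KO LPS libraries hold 25 and 14 Ccr7-low cells, the WT LPS libraries 2 each, and the vehicle libraries 59 and 41.

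Sex marks divided the libraries in a way that crosses the groups. Of the gated cells, 18 and 7 of the KO LPS libraries held Xist and no Y-linked UMI and 13 and 7 held Y-linked UMIs only, so both kinds were in these libraries. The WT LPS libraries had 20 and 17 cells with Xist only and none with Y-linked UMIs only. In KO vehicle 63 of 65 cells held Xist only, and in WT vehicle 24 of 41 held Y-linked UMIs only. Under LPS, 10 of 19 Xist-only KO cells outside the Siglech kind were Ccr7-high, against 29 of 32 Xist-only WT cells, while 3 of 19 Y-only KO cells were. Genotype and sex mark can therefore not be told apart between the vehicle libraries. Nor can LPS and sex mark between the WT libraries, which also enter the means over both genotypes. Their part in the other comparisons was not tested beyond the values given.

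The libraries held 55361477 to 115225284 UMIs, and the gated cells 688695, 206774, 470084, 309022, 863917 and 419899 UMIs in the order KO LPS 1 and 2, WT LPS 1 and 2, KO vehicle and WT vehicle. Median depth per gated cell was 13904, 9865, 19874 and 10328.5 UMIs under LPS and 11530 and 8428 under vehicle. Neutrophil RNA moved with LPS: the 12 neutrophil markers other than S100a8 and S100a9 summed to 1635 to 3302 CPM in the gated cells of LPS libraries and to 110.0 to 252 CPM in vehicle libraries, with at most 2 of them at 0 in an LPS library. Of 19 monocyte and macrophage markers the sum was 3279 to 8486 CPM under LPS and 5497 to 7588 CPM under vehicle, with 1 to 3 at 0 in a library. The 8 cDC2 and plasmacytoid markers summed to 35.6 to 745 CPM under LPS and 42.9 to 175 CPM under vehicle, with 1 to 6 at 0. The 16 lymphocyte markers summed to 61.5 to 708 and 398 to 588 CPM, and the 15 structural and red-cell markers to 116 to 425 and 286 to 351 CPM. A free-RNA bound is given below for genes where it matters: it is the largest share of a gene's UMIs in the gate that RNA from outside the cells could supply if all S100a8 and S100a9 UMIs there came from it. No gated cell was shared between libraries, although each pair of libraries shared 20 to 35 barcode sequences. Levels below are CPM of the gate after TMM scaling unless called plain, and changes are log2 values from edgeR's quasi-likelihood test. The value after ± is an approximate standard error, the size of the log2 change divided by the square root of the test's F statistic. The test does not report it. A gene is called where the Benjamini-Hochberg adjusted p over all genes tested is below 0.05.

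LPS changed the gated cells broadly. Among 6826 genes tested, 974 (14.3%) were higher and 509 (7.46%) lower in the LPS libraries, as a mean over both genotypes. Without the WT vehicle library, which leaves only the KO libraries to be compared, 417 were higher and 42 lower, without the KO vehicle library 302 were lower, and without the second WT LPS library 802 were lower. The largest rises by the naming rule were in Cxcl9, Il2ra, Cd40, Oasl1, Ccl22, Car13, Il27, Ifit2, Irf7 and Apol7c, and the largest falls in Rtl8b, Hepacam2, Rtl8a, Sept3, Epcam, Camk1d, Arhgap18, St3gal5, Klrb1b and Pak1. Of the falls, Sept3, Arhgap18, St3gal5, Klrb1b and Pak1 were not called without the WT vehicle library (log2 −0.68, −1.20, −1.02, −1.36 and −1.27).

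Of 26 identity genes of the lineage that were tested, other than the gate genes, 13 fell under LPS, 3 rose and 10 were not called, with a median log2 change of −1.05 against −0.03 over all genes. Over all genes tested 7.46% fell and 14.3% rose. In all gated cells of the KO LPS libraries against both vehicle libraries, 6 of the 26 fell and 4 rose, with a median of −0.31. Tlr3, the sensor of double-stranded RNA, had 119.8 and 142 CPM in KO LPS, 4.35 and 8.21 in WT LPS, 173 in KO vehicle and 138 in WT vehicle. The KO LPS libraries were near the vehicle libraries and the WT LPS libraries far below both. Tlr3 fell by 2.48 ± 0.32 on the log2 scale (adjusted p = 0.000141) on average, and without the WT vehicle library the change was −0.49 and no longer called. Sept3, a septin of the cytoskeleton, had 126 and 142 CPM in KO LPS, 2.17 and 8.21 in WT LPS, 203 in KO vehicle and 194 in WT vehicle. It showed the same order as Tlr3, with a mean change of log2 −3.01 ± 0.34 (adjusted p = 4.33e-05), and −0.68 without the WT vehicle library, which was not called. Hepacam2, an immunoglobulin-family adhesion gene, had 44.7 and 21 CPM in KO LPS, 2.17 and 8.21 in WT LPS, 148 in KO vehicle and 128 in WT vehicle. All 4 LPS values lay below both vehicle values, and the change was log2 −3.40 ± 0.38 (adjusted p = 4.74e-05), or −2.05 without the WT vehicle library. Ppt1, a lysosomal thioesterase, had 169 and 231 CPM in KO LPS, 67.4 and 69.8 in WT LPS, 473 in KO vehicle and 475 in WT vehicle. Ppt1 also did not overlap between LPS and vehicle (log2 −2.03 ± 0.23, adjusted p = 5.11e-05; −1.33 without the WT vehicle library). Irf8 had 690.3 and 940.4 CPM in KO LPS, 541 and 246 in WT LPS, 1164 in KO vehicle and 1065 in WT vehicle. Every LPS value was below the vehicle values, with a change of log2 −0.97 ± 0.29 (adjusted p = 0.03), not called without the first KO LPS library (−0.90) or the WT vehicle library (−0.59). Batf3 went the other way, at 259 and 236 CPM in KO LPS, 194 and 324 in WT LPS, 142 in KO vehicle and 100.4 in WT vehicle. Batf3 changed by log2 1.08 ± 0.27 (adjusted p = 0.0129), which was not called without the WT vehicle library (0.75). The largest rise on the list was in Ifi205, an interferon-inducible gene that this lineage also holds at rest: it had 1651 and 1518 CPM in KO LPS, 1955 and 2200.1 in WT LPS, 154 in KO vehicle and 163 in WT vehicle. The LPS values were about alike in both genotypes and all far above the vehicle values (log2 3.52 ± 0.27, adjusted p = 2.80e-06). Itgae itself had 238 and 231 CPM in KO LPS, 15.2 and 69.8 in WT LPS, 299.6 in KO vehicle and 278 in WT vehicle. Itgae fell by 1.63 ± 0.35 on the log2 scale (adjusted p = 0.00464), with only the WT LPS values standing apart, and it was not called without the WT vehicle library (−0.41). Without the KO vehicle library, which leaves the WT libraries to be compared, the falls were larger: −4.53 for Tlr3, −5.40 for Sept3 and −2.91 for Itgae. In that comparison LPS and sex mark cannot be told apart, since Xist marked the WT LPS cells and Y-linked UMIs the WT vehicle cells.

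**Figure D2:**
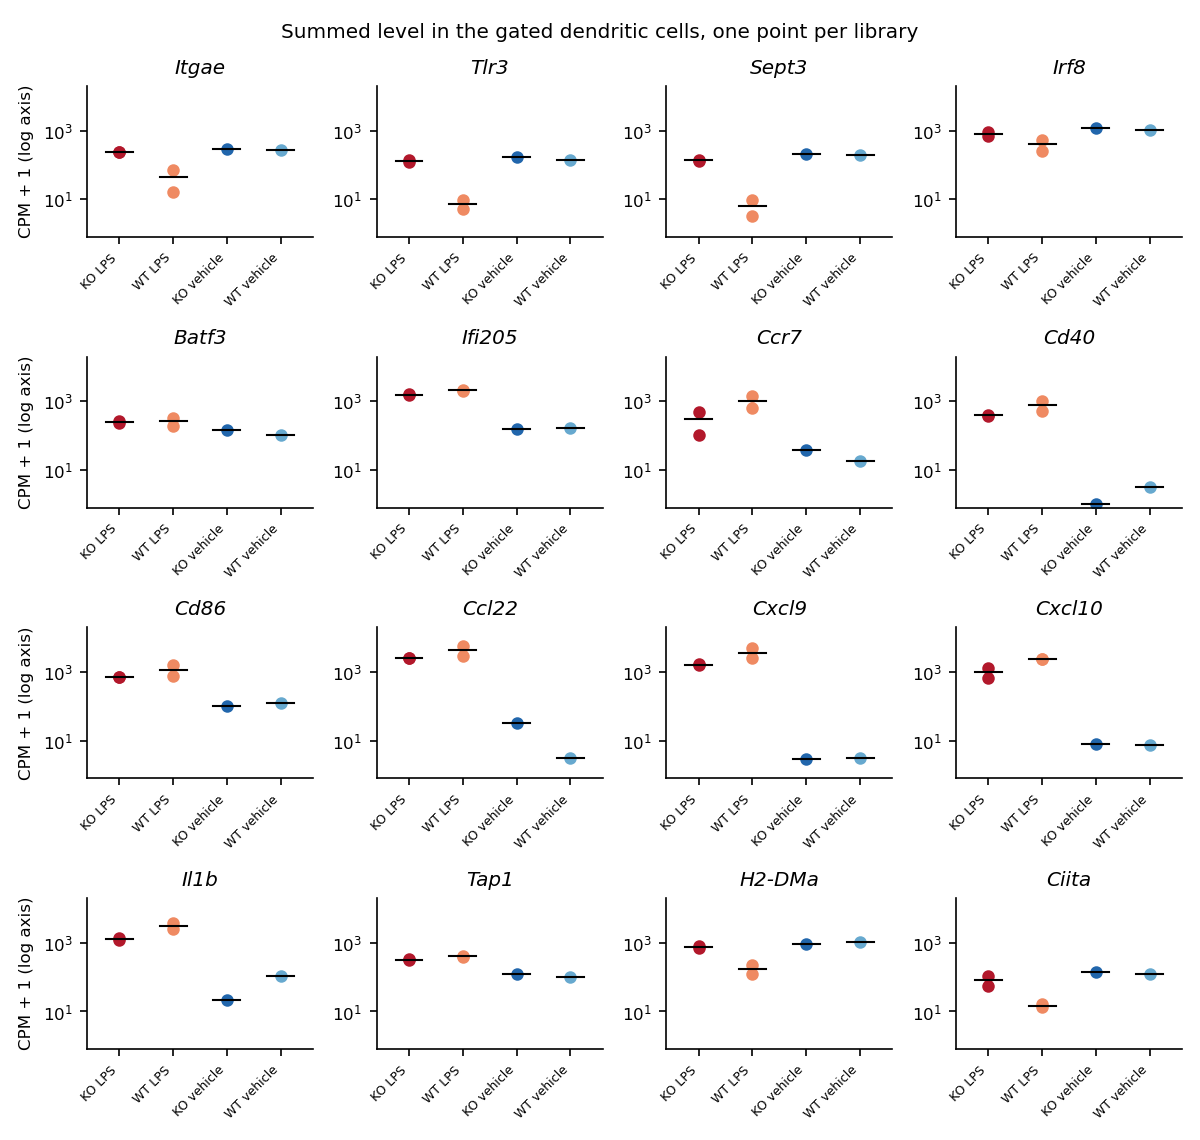
Level of 16 genes in the gated cells (vertical axes, CPM + 1 on a log axis) by group (horizontal axes), 1 point per library with a bar at the group mean; the LPS groups have 2 libraries each and the vehicle groups 1. Itgae, Tlr3, Sept3, H2-DMa and Ciita are low in WT LPS libraries, while Cxcl9, Cd40, Ccl22 and Cxcl10 are above vehicle in all 4 LPS libraries.

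These means mix the cell kinds. The Ccr7-low cells were also compared, which the data allow only for the KO LPS libraries (25 and 14 cells) against both vehicle libraries together (59 and 41 cells). In them 465 of 5302 genes tested (8.77%) were higher and 164 (3.09%) lower; all gated cells of the same libraries gave 820 higher (13.1%) and 437 lower (6.98%) of 6264. Values for Ccr7-low cells are therefore set beside those for all gated cells of the same libraries, since the means given above also hold the WT LPS libraries. On the identity list 3 of 25 genes rose and 4 fell in Ccr7-low cells, and 4 of 26 rose and 6 fell in all gated cells of these libraries. The same libraries gave, for all gated cells, rises in 37 of 37 interferon-stimulated, 27 of 28 maturation and 13 of 15 cytokine and chemokine genes. Tlr3 changed by log2 0.16 (adjusted p = 0.746) in Ccr7-low cells and by log2 −0.34 (adjusted p = 0.312) in all gated cells, neither called. In Ccr7-low cells Sept3 changed by log2 −0.21 (adjusted p = 0.621), Itgae by log2 0.041 (adjusted p = 0.928) and Irf8 by log2 −0.35 (adjusted p = 0.219), none of them called; in all gated cells of these libraries the values were −0.63, −0.34 and −0.50, likewise not called. Hepacam2 (log2 −1.41, adjusted p = 0.0144) and Ppt1 (log2 −1.16, adjusted p = 0.00501) were lower in Ccr7-low cells and Ifi205 was higher (log2 2.97, adjusted p = 2.49e-06). This comparison sets KO cells against vehicle cells of both genotypes and sex marks, and what that adds was not tested.

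Interferon-stimulated genes rose throughout. All 39 of the list that could be tested were higher under LPS and none lower, with a median log2 change of 5.30, and in the Ccr7-low cells 32 of 34 were higher. Irf7, which amplifies the type I interferon response, had 791 and 988 CPM in KO LPS, 1552 and 2196 in WT LPS, 13.1 in KO vehicle and 8.37 in WT vehicle. The 4 LPS values were all above 700 CPM and the vehicle values at or below 13.1 CPM (log2 6.91 ± 0.39, adjusted p = 4.27e-07; log2 6.04 in Ccr7-low cells, adjusted p = 3.32e-07). Oasl1, an antiviral member of the oligoadenylate synthetase family, had 558 and 483 CPM in KO LPS, 978 and 1408 in WT LPS, 5.03 in KO vehicle and 0 in WT vehicle, again with no overlap. Oasl1 changed by log2 9.42 ± 0.52 (adjusted p = 4.27e-07). Isg20, an exonuclease, changed by log2 7.31 ± 0.40 (adjusted p = 4.27e-07). Ifit2, which binds foreign RNA, changed by log2 7.09 ± 0.46 (adjusted p = 9.56e-07). Gbp5, a guanylate-binding GTPase that acts on intracellular bacteria and inflammasomes, had 246 and 215 CPM in KO LPS, 613 and 575 in WT LPS, 2.01 in KO vehicle and 0 in WT vehicle. With 2 vehicle UMIs its LPS to vehicle ratio was 237 (95% counting interval 65.2 to 1957). Rsad2 (viperin) had 754 and 468 CPM in KO LPS, 1339 and 1601 in WT LPS, 0 in KO vehicle and 6.27 in WT vehicle. Rsad2 had a ratio of 400.4 (95% counting interval 137 to 1944), and a free-RNA bound of up to 48.5% in an LPS library.

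Promoter windows of 5 genes that rose are shown as examples of windows that hold a motif, chosen after the matches were seen: Gbp5 and Rsad2 from the interferon-stimulated list, Cxcl10 from the chemokine list, Ifi205 from the identity list and Nfkbia from the NF-kB list. The windows are the 250 bases before each start in the RefSeq table of GRCm38.p6. The core of the interferon-stimulated response element, GAAA, any 2 bases and GAAA on either strand, was found in 16 of 30 interferon-stimulated genes with a window (53.3%). It was found in 77 of 780 genes called higher (9.87%), in 220 of 5488 genes tested in the gate (4.01%) and in 936 of 27025 genes of the table (3.46%). The kB motif, GGGA, any 2 bases and TTCC on either strand, was found in 3 of the 30 and in 5 of 18 cytokine and chemokine genes (27.8%), against 368 of 27025 (1.36%). The letters describe these windows and show no binding. The windows below run 5′ to 3′ on the gene's strand, with motif matches in capitals. Cxcl10 (chr5:92348890-92349139, minus strand) holds GAAAGTGAAA from −213 to −204 and GGGAAATTCC from −159 to −150, counted back from the start. Gbp5 (chr3:142496684-142496933, plus strand) holds the reverse forms of both, Rsad2 (chr12:26456453-26456702, minus strand) the reverse form of the response element alone, Ifi205 (chr1:174031756-174032005, minus strand) the response element alone and Nfkbia (chr12:55492648-55492897, minus strand) the reverse kB form alone.
Cxcl10: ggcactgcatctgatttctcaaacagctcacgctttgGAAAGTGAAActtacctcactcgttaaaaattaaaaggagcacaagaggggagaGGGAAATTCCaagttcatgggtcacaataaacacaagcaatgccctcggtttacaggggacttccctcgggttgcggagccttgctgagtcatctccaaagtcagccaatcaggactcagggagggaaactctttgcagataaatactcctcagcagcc
Gbp5: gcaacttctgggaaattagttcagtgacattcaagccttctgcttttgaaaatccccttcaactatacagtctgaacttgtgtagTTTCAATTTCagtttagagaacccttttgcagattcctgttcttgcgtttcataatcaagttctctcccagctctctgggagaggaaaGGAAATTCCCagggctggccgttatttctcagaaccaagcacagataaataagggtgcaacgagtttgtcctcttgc
Rsad2: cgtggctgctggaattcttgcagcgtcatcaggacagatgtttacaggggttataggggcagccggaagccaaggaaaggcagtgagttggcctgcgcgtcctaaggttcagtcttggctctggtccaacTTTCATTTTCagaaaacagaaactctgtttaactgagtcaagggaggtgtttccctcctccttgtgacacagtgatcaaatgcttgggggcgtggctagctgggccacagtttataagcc
Ifi205: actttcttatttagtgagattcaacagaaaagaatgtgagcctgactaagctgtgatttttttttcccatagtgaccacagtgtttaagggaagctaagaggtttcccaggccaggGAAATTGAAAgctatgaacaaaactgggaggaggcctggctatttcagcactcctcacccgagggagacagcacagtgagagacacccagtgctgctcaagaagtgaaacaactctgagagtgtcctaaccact
Nfkbia: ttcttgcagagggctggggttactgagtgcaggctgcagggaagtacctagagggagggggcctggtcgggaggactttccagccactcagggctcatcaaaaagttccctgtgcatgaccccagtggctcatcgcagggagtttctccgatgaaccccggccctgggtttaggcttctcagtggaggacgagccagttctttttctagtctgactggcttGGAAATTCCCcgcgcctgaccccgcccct
No match to either motif was found in the windows of Cxcl9, Oasl1, Irf7 and Ccl22, which are not printed.

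Chemokines and cytokines were among the largest rises. Of 20 listed genes tested 18 rose and 1 fell, with a median log2 change of 5.91, or 4.43 with the 4 genes that had no vehicle UMI set to their lower bound; in Ccr7-low cells 12 of 14 rose. Cxcl9, a CXCR3 ligand that draws T cells, had 1604 and 1728 CPM in KO LPS, 2535 and 4909 in WT LPS, 2.01 in KO vehicle and 2.09 in WT vehicle. Its 4 LPS values were all far above vehicle, where 3 UMIs were counted, and the ratio of LPS to vehicle was 944 (95% counting interval 323 to 4581; adjusted p = 4.27e-07). It had a UMI in 30 of 42, 14 of 21, 15 of 21 and 22 of 22 gated cells of the LPS libraries and in 2 of 65 and 1 of 41 of the vehicle libraries. When every cell was thinned to 2000 UMIs, 64.2% of LPS and 0.943% of vehicle gated cells held it. So did 51.6% of LPS cells in the mature dendritic cell gate and 17.4% in the cDC2 gate, with 0 of 19 and 0 of 106 in vehicle. The shares were 1.93% of LPS and 0.194% of vehicle B cells, which were shallower (median 2495 to 5047 UMIs in the LPS libraries). In the Ccr7-low cells alone its plain level was 1297 and 1437 CPM in KO LPS, 0 and 2646 in WT LPS, 2.57 in KO vehicle and 2.38 in WT vehicle (adjusted p = 5.00e-08 for KO LPS against vehicle). Cxcl10, the other CXCR3 ligand measured here, had 1344 and 657 CPM in KO LPS, 2479 and 2487 in WT LPS, 7.04 in KO vehicle and 6.27 in WT vehicle. Cxcl10 changed by log2 7.85 ± 0.48 (adjusted p = 6.87e-07), with a free-RNA bound of up to 50.4%. Ccl22, which draws CCR4-bearing T cells, had 2568 and 2643 CPM in KO LPS, 2877 and 5775 in WT LPS, 31.2 in KO vehicle and 2.09 in WT vehicle. Ccl22 changed by log2 8.61 ± 0.52 (adjusted p = 5.80e-07). Il27, a subunit of interleukin 27, had 149 and 52.5 CPM in KO LPS, 185 and 287 in WT LPS, 1.01 in KO vehicle and 0 in WT vehicle. Il27 had a ratio of 198 (95% counting interval 35.2 to 7842). Il1b had 1181 and 1397 CPM in KO LPS, 2464 and 3785 in WT LPS, 21.1 in KO vehicle and 107 in WT vehicle. Il1b changed by log2 5.39 ± 0.35 (adjusted p = 9.56e-07; free-RNA bound up to 38.6%). Il1rn, the interleukin 1 receptor antagonist, had 230.1 and 221 CPM in KO LPS, 1035 and 805 in WT LPS, 20.1 in KO vehicle and 29.3 in WT vehicle. Il1rn changed by log2 4.22 ± 0.31 (adjusted p = 2.05e-06; free-RNA bound up to 64.8%).

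Il12b, the shared chain of interleukins 12 and 23, stayed rare. It had 16 and 15.8 CPM in KO LPS, 78.3 and 32.8 in WT LPS, 0 in KO vehicle and 0 in WT vehicle. No gated vehicle cell held it, so it was at least 14.6-fold higher under LPS (floor of 3 counts over the vehicle libraries; adjusted p = 0.000687). Only 3, 1, 1 and 5 gated cells of the LPS libraries held a UMI, and all 36 UMIs of the first WT LPS library were in 1 cell.

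Maturation genes rose nearly as a block: 29 of 31 tested were higher and none lower, with a median log2 change of 3.64 (3.52 with the gene at 0 in vehicle at its bound), and 13 of 20 were higher in Ccr7-low cells. Cd40, the costimulatory receptor for T cell help, had 407 and 378 CPM in KO LPS, 511 and 1022 in WT LPS, 0 in KO vehicle and 2.09 in WT vehicle. The vehicle cells held 1 UMI, for a ratio of 622 (95% counting interval 111 to 24588; adjusted p = 9.56e-07). Its level in Ccr7-low cells, in plain CPM, was 117 and 157 CPM in KO LPS, 300.1 and 236 in WT LPS, 0 in KO vehicle and 2.38 in WT vehicle (adjusted p = 3.25e-05 for KO LPS against vehicle). Cd86, which costimulates through CD28, had 739.9 and 704 CPM in KO LPS, 794 and 1576 in WT LPS, 105 in KO vehicle and 128 in WT vehicle. Every LPS value was at least 704 CPM and no vehicle value above 128 CPM (log2 3.0 ± 0.33, adjusted p = 3.93e-05; log2 1.99 in Ccr7-low cells, adjusted p = 0.000107). Ccr7, used only to divide the kinds and not to choose the cells, had 495 and 105 CPM in KO LPS, 635 and 1416 in WT LPS, 36.2 in KO vehicle and 16.7 in WT vehicle. Ccr7 changed by log2 4.52 ± 0.62 (adjusted p = 0.000216), with the second KO LPS library nearest to vehicle. Marcksl1, an actin regulator, changed by log2 4.30 ± 0.34 (adjusted p = 2.98e-06). Birc3, an inhibitor of apoptosis induced by NF-kB, changed by log2 4.1 ± 0.36 (adjusted p = 7.32e-06; 2.17 without the WT vehicle library). Il2ra, the interleukin 2 receptor alpha chain, had 102 and 78.8 CPM in KO LPS, 272 and 439 in WT LPS, 0 in KO vehicle and 0 in WT vehicle. It was therefore at least 79.5-fold higher under LPS (adjusted p = 2.19e-06).

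**Figure D3:**
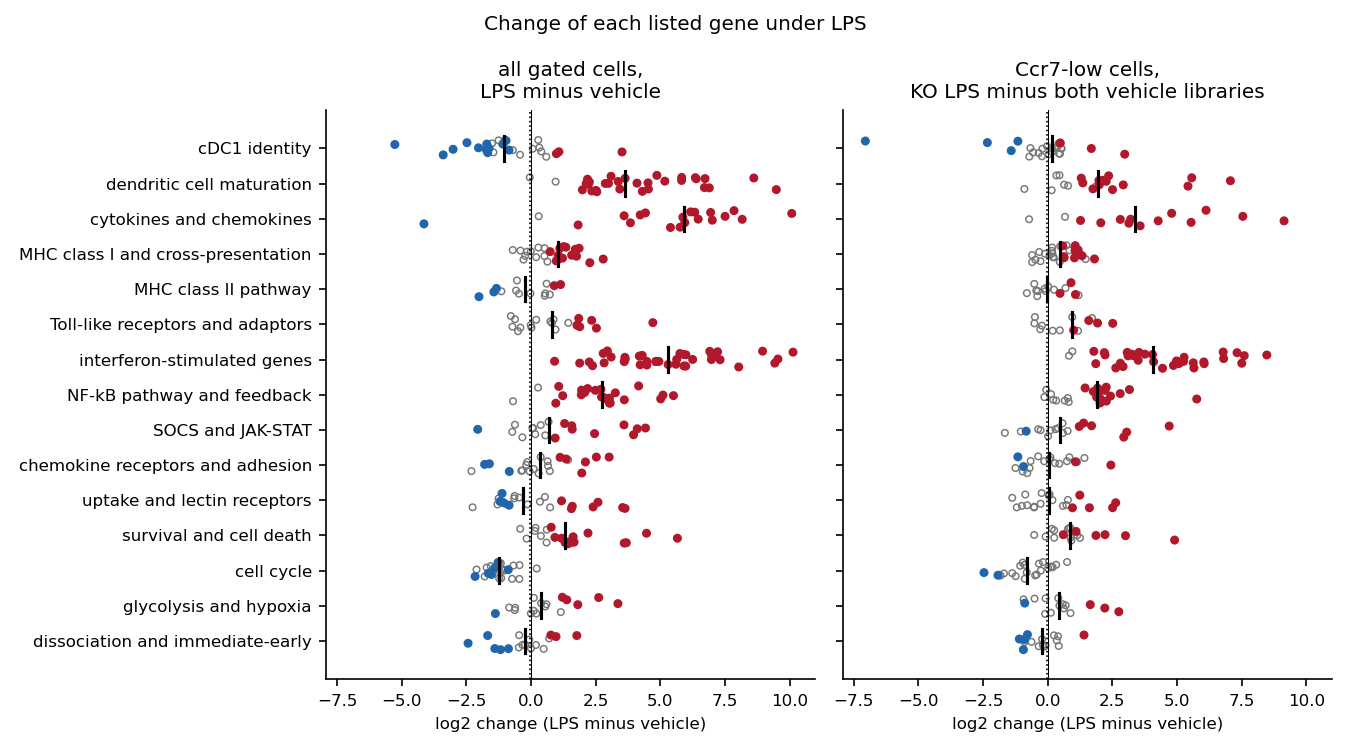
Log2 change of each tested gene (1 point) in 15 gene lists, for all gated cells, LPS minus vehicle over both genotypes (left), and for Ccr7-low cells, KO LPS minus both vehicle libraries (right). Red points are called higher, blue points called lower and open points not called; the short black bar is the list's median and the dotted line the median of all genes tested. The interferon list lies to the right of 0 in both panels, and the identity list has a median of −1.05 on the left and 0.16 on the right; the panels differ in libraries as well as in cell kind.

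Antigen presentation genes were listed by MHC class. Of 27 MHC class I and cross-presentation genes tested, 16 rose and none fell (median 1.03), and 10 rose in Ccr7-low cells; with plain library totals in place of TMM, 11 rose and 3 fell. Tap1, which carries peptides into the endoplasmic reticulum, had 331 and 320.5 CPM in KO LPS, 385 and 419 in WT LPS, 126 in KO vehicle and 98.3 in WT vehicle and did not overlap. Tap1 changed by log2 1.70 ± 0.24 (adjusted p = 0.000292). Psmb10, a subunit of the immunoproteasome, changed by log2 1.86 ± 0.25 (adjusted p = 0.000178), and Tapbpl, a peptide editor related to tapasin, by log2 2.79 ± 0.35 (adjusted p = 0.000103). Of 14 class II pathway genes other than the gate genes, 2 rose (14.3%, the share over all genes) and 3 fell (median −0.25), and with plain totals none rose and 5 fell. In Ccr7-low cells 3 of the 14 rose and none fell, and in all gated cells of the same libraries 5 rose and 1 fell. The difference between the classes was not tested. Ciita, the master regulator of class II transcription, had 54.3 and 110.3 CPM in KO LPS, 15.2 and 12.3 in WT LPS, 145 in KO vehicle and 121 in WT vehicle. Its WT LPS values were the lowest, and the mean change of log2 −2.01 ± 0.34 (adjusted p = 0.000935) was not called without the WT vehicle library (−1.01) and was −3.08 without the KO vehicle library. H2-DMa, a chain of the peptide exchanger for class II, had 791 and 719.7 CPM in KO LPS, 126 and 226 in WT LPS, 931 in KO vehicle and 1025 in WT vehicle. The KO LPS and vehicle values were close, and the mean change of log2 −1.44 ± 0.25 (adjusted p = 0.00121) became −0.36 without the WT vehicle library, where it was not called, and −2.59 without the KO vehicle library. In Ccr7-low cells Ciita changed by log2 −0.52 (adjusted p = 0.29) and H2-DMa by log2 −0.08 (adjusted p = 0.801).

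Among 19 Toll-like receptor and adaptor genes tested, 6 rose and none fell, against 14.3% and 7.46% of all genes tested. Tlr4, the LPS receptor, was low in every library, at 14.4 and 15.8 CPM in KO LPS, 23.9 and 8.21 in WT LPS, 14.1 in KO vehicle and 18.8 in WT vehicle. Tlr4 changed by log2 −0.01 ± 0.64 (adjusted p = 0.995), and the sign turned with a gate of at least 1 UMI (0.13) and without the second WT LPS library (0.21). Myd88, its main adaptor, had 104 and 184 CPM in KO LPS, 176 and 177 in WT LPS, 44.2 in KO vehicle and 46.0 in WT vehicle. Myd88 changed by log2 1.78 ± 0.31 (adjusted p = 0.00137), not called without the WT vehicle library (1.56). Cd14, the LPS co-receptor, changed by log2 2.34 ± 0.30 (adjusted p = 0.000138), with a free-RNA bound of up to 84.2%, so most of its UMIs could be from outside the cells.

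Feedback genes rose with the response. The shares over all genes tested were 14.3% higher and 7.46% lower, or 8.77% and 3.09% in Ccr7-low cells. Of 23 NF-kB pathway genes tested 21 rose and none fell (median 2.72; 14 of 22 in Ccr7-low cells). Nfkbia, the inhibitor IkB-alpha and itself an NF-kB target, had 1659 and 1376 CPM in KO LPS, 2287 and 3239 in WT LPS, 279.5 in KO vehicle and 282 in WT vehicle. Nfkbia changed by log2 2.87 ± 0.28 (adjusted p = 1.71e-05). Tnip3, which restrains NF-kB signalling, changed by log2 4.16 ± 0.35 (adjusted p = 6.00e-06) and Bcl3, a nuclear IkB protein, by log2 5.01 ± 0.43 (adjusted p = 6.03e-06). Of 19 SOCS and JAK-STAT genes 9 rose and 1 fell (median 0.68; 6 rose and 1 fell of 18 in Ccr7-low cells). Socs3, an inhibitor of cytokine receptor signalling, had 471 and 331 CPM in KO LPS, 805 and 731 in WT LPS, 38.2 in KO vehicle and 27.2 in WT vehicle, so all LPS values were above vehicle. Socs3 changed by log2 4.11 ± 0.31 (adjusted p = 2.50e-06). Socs1, which inhibits interferon receptor signalling, had 75.1 and 63 CPM in KO LPS, 124 and 65.7 in WT LPS, 12.1 in KO vehicle and 2.09 in WT vehicle. Socs1 changed by log2 3.96 ± 0.49 (adjusted p = 9.60e-05; 2.46 without the WT vehicle library; free-RNA bound up to 30.6%). Cish, an inhibitor of STAT5 signalling, had 171 and 158 CPM in KO LPS, 150.0 and 229.9 in WT LPS, 10.1 in KO vehicle and 6.27 in WT vehicle. Cish changed by log2 4.42 ± 0.39 (adjusted p = 7.13e-06; log2 4.69 in Ccr7-low cells, adjusted p = 6.44e-06). Stat5a changed by log2 3.59 ± 0.40 (adjusted p = 4.09e-05) and Stat3 by log2 2.46 ± 0.26 (adjusted p = 2.70e-05).

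Other groups moved in part, and some of their counts were near the shares over all genes tested. Those shares were 14.3% higher and 7.46% lower, or 8.77% and 3.09% in Ccr7-low cells. Of 22 chemokine receptor and adhesion genes tested 6 rose and 3 fell (2 and 2 of 19 in Ccr7-low cells). Ccr2, the receptor for monocyte-attracting chemokines, had 168 and 189 CPM in KO LPS, 109 and 115 in WT LPS, 402 in KO vehicle and 458 in WT vehicle. Ccr2 fell by 1.61 ± 0.22 on the log2 scale (adjusted p = 0.000202). Of 22 uptake and lectin receptors 7 rose and 4 fell (5 and 0 of 20 in Ccr7-low cells). Timd4, a receptor for phosphatidylserine on dead cells, had 337 and 326 CPM in KO LPS, 344 and 919 in WT LPS, 42.2 in KO vehicle and 31.4 in WT vehicle. Timd4 changed by log2 3.63 ± 0.42 (adjusted p = 5.87e-05). Ly75 (DEC-205), an uptake receptor of this lineage, had 384 and 326 CPM in KO LPS, 335 and 677 in WT LPS, 69.4 in KO vehicle and 92.0 in WT vehicle. Ly75 changed by log2 2.40 ± 0.33 (adjusted p = 0.000205). Both were above vehicle in all 4 LPS libraries. Of 21 survival and death genes 14 rose and none fell (6 of 18 in Ccr7-low cells). Casp4, mouse caspase-11 and the cytosolic LPS sensor, changed by log2 5.66 ± 0.42 (adjusted p = 2.26e-06). Bcl2l11 (BIM), which promotes apoptosis, changed by log2 3.6 ± 0.34 (adjusted p = 1.34e-05). Of 17 glycolysis and hypoxia genes 5 rose and 1 fell, with Pfkfb3, an activator of glycolysis, at log2 3.36 ± 0.40 (adjusted p = 7.72e-05). Of 23 cell cycle genes 6 fell and none rose (median −1.24; 2 of 21 fell in Ccr7-low cells). Tubb5, a tubulin, fell by 1.27 ± 0.26 on the log2 scale (adjusted p = 0.00339), and without the WT vehicle library its change of −0.92 was not called. After thinning to 2000 UMIs, 24.5% of LPS and 50.9% of vehicle gated cells held at least 2 UMIs of the cell cycle list, and before thinning the libraries ranged from 76.2% to 100% under LPS and from 90.2% to 90.8% under vehicle. Among 17 genes that respond to tissue dissociation, 3 rose and 5 fell, with Fosb at log2 −2.43 ± 0.25 (adjusted p = 2.55e-05; −1.52 without the WT vehicle library). Btg2, an antiproliferative gene, had 558 and 536 CPM in KO LPS, 209 and 287 in WT LPS, 1209.6 in KO vehicle and 1136 in WT vehicle. Btg2 changed by log2 −1.68 ± 0.22 (adjusted p = 0.000168).

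Marker genes of other cells also moved, beside 14.3% higher and 7.46% lower over all genes tested. Of 10 neutrophil genes tested 9 rose. Lcn2 (lipocalin 2), one of them, had 2283 and 851 CPM in KO LPS, 2583 and 3025 in WT LPS, 0 in KO vehicle and 8.37 in WT vehicle, with a free-RNA bound of up to 100%. S100a8 and S100a9 together had a median of 5, 2, 14 and 8 UMIs per gated cell in the LPS libraries and 0 in both vehicle libraries. The 7, 3, 6 and 3 LPS cells with more than 30 such UMIs held 4322 of 4485, 956 of 1018, 1156 of 1305 and 785 of 940 of these UMIs. Of 18 monocyte and macrophage genes 8 rose and 3 fell, of 6 cDC2 and plasmacytoid genes 4 rose, of 9 lymphocyte genes 3 fell, and of 10 structural genes 3 rose and 1 fell. Without gated cells that had 1% or more of their UMIs from S100a8 and S100a9, 913 genes were higher and 555 lower, the interferon list had 36 of 39 higher and the maturation list 29 of 31 higher. The part of the other cells' RNA in the remaining values was not tested.

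The LPS response of the gated cells was set against that of the cDC2 gate (28 and 20 cells in KO LPS, 18 and 24 in WT LPS, 42 and 65 in KO and WT vehicle) in 1 fit with each library as a block. The cDC2 gate admits only cells under 3 UMIs of Ccr7 and Fscn1, whereas the cDC1 gate has no such limit, so part of any difference is set by the gates. Of 7315 genes tested, 59 (0.807%) had a more positive change in the cDC1 gate and 8 (0.109%) a more negative one, 0.916% in all. Without the second KO LPS library these were 17 and 1, and without the first WT LPS library 198 and 77. On the lists, a more positive change was called for 4 of 39 interferon-stimulated, 5 of 31 maturation and 2 of 21 cytokine and chemokine genes, and a more negative one for 1 cytokine or chemokine gene. With Ccr7-low cDC1 of KO LPS against vehicle, a more positive change was called for none of 39, 25 and 16 genes of these lists, and a more negative one for none, 1 and 1. In this fit Ddit4, a stress-induced inhibitor of mTORC1, had 153 and 208 CPM in KO LPS, 25.7 and 39.9 in WT LPS, 4.30 in KO vehicle and 4.45 in WT vehicle in the cDC1 gate. In the cDC2 gate the values were 71.7 and 49.5 CPM in KO LPS, 5.75 and 35.6 in WT LPS, 54.4 in KO vehicle and 29.2 in WT vehicle. The difference between the 2 responses was log2 4.27 ± 0.68 (adjusted p = 0.0035), and it was also called among Ccr7-low cDC1 of KO LPS against vehicle (5.08, adjusted p = 0.0128), although not when the second KO LPS library was left out (4.08). Pdcd4, an inhibitor of translation initiation, had 338 and 263 CPM in KO LPS, 224 and 394 in WT LPS, 38.7 in KO vehicle and 40.0 in WT vehicle in the cDC1 gate. In the cDC2 gate it had 58.9 and 54.0 CPM in KO LPS, 20.1 and 6.47 in WT LPS, 62.8 in KO vehicle and 68.7 in WT vehicle. The difference was log2 4.15 ± 0.48 (adjusted p = 0.000319), and in Ccr7-low cDC1 1.98 (adjusted p = 0.181). Tnfsf9 (4-1BB ligand) had 65.3 and 32.8 CPM in KO LPS, 72.5 and 186 in WT LPS, 1.08 in KO vehicle and 8.90 in WT vehicle in the cDC1 gate. The cDC2 gate had 23.1 and 22.5 CPM in KO LPS, 43.1 and 71.1 in WT LPS, 43.9 in KO vehicle and 65.2 in WT vehicle. Its difference was log2 5.06 ± 0.64 (adjusted p = 0.000513), and 2.96 (adjusted p = 0.451) in Ccr7-low cDC1. Cd40, Ndrg1 and Plxnc1 completed the 6 named genes in this direction, with differences of 5.25 (1 vehicle UMI in the cDC1 gate), 4.25 and 4.16, and none of the 3 was called in Ccr7-low cDC1. Cd40 was also not called without the second KO LPS library (5.37).

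Ifi205 went the other way and kept its call under each alternative tried for this comparison. It had 1775 and 1582 CPM in KO LPS, 2101 and 2373 in WT LPS, 165 in KO vehicle and 173 in WT vehicle in the cDC1 gate. The cDC2 gate had 871 and 719 CPM in KO LPS, 1118 and 850.2 in WT LPS, 4.19 in KO vehicle and 3.43 in WT vehicle for this gene. The cDC2 vehicle cells nearly lacked it while the cDC1 vehicle cells held it, and both were high under LPS, so the fold rise was larger in cDC2 (log2 −4.24 ± 0.47, adjusted p = 0.000211; −4.63, adjusted p = 0.00111 in Ccr7-low cDC1). Il1rn had 247 and 229.9 CPM in KO LPS, 1113 and 868 in WT LPS, 21.5 in KO vehicle and 31.1 in WT vehicle in the cDC1 gate. Cells of the cDC2 gate had 1040.3 and 1142 CPM in KO LPS, 2296 and 1733 in WT LPS, 18.8 in KO vehicle and 17.2 in WT vehicle. Il1rn differed by log2 −2.12 ± 0.40 (adjusted p = 0.0122), and by −2.80 (adjusted p = 0.0466) in Ccr7-low cDC1. Without the second KO LPS library it was −2.07 and not called. Tlr3 differed by log2 −3.72 ± 0.74 (adjusted p = 0.0182) but by −1.37 (adjusted p = 0.574) in Ccr7-low cDC1, and it was not called without any 1 of the first KO LPS (−3.33), second KO LPS (−3.92) and second WT LPS (−3.14) libraries. Mmp14, F10 and Ctsd had differences of −5.27, −2.47 and −2.02, and none was called in Ccr7-low cDC1 or without the second KO LPS library (−5.38, −2.40 and −2.13).

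**Figure D4:**
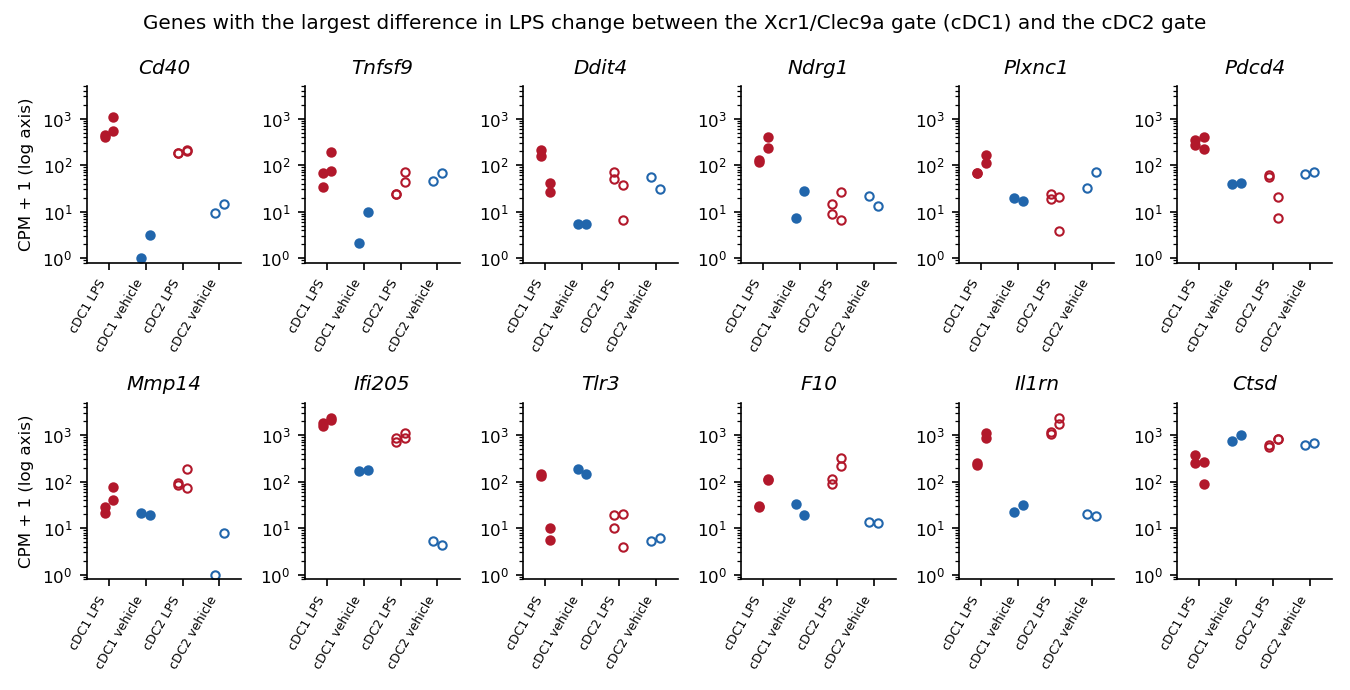
Level of 12 genes with the largest called differences in LPS change between the gates (vertical axes, CPM + 1 on a log axis, scaled in the joint fit), by gate and treatment (horizontal axes), 1 point per library; filled points are cDC1 and open points cDC2, LPS is red and vehicle blue, and within a column KO points are left of WT points. Ifi205 is high under LPS in both gates, and under vehicle only the cDC1 gate holds it at a level well above that of the cDC2 gate.

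Between the genotypes under LPS, 34 of 6826 genes (0.498%) were higher and 22 (0.322%) lower in the KO gated cells, or 0.82% in either direction. Among them 4 of 26 identity genes were higher, and 3 of 39 interferon-stimulated and 4 of 20 cytokine and chemokine genes were lower. The counts were unstable: without the second WT LPS library 205 were higher and 158 lower, and without the first WT LPS library 42 and 99. Tlr3, at the levels given above, differed by log2 4.43 ± 0.49 (adjusted p = 0.00322) and had a UMI in 23 of 42 and 8 of 21 KO LPS cells, against 2 of 21 and 2 of 22 WT LPS cells. Of the 31 KO LPS cells with Tlr3, 30 were Ccr7-low. Sept3 had 106 UMIs in KO LPS and 3 in WT LPS cells, a ratio of 30.7 (95% counting interval 10.2 to 151; adjusted p = 0.00322), and was found in 22 of 42 and 10 of 21 KO LPS cells, against 1 of 21 and 2 of 22 WT LPS cells. Mycl, a transcription factor of this lineage, had 57.5 and 68.3 CPM in KO LPS, 4.35 and 4.1 in WT LPS, 64.4 in KO vehicle and 43.9 in WT vehicle. Mycl had a KO to WT ratio of 14.2 (95% counting interval 4.59 to 71.3; adjusted p = 0.0161). Its KO LPS values were near the vehicle values and WT LPS values low, and the same held for Ctnnbip1 (ratio 11.6; 95% counting interval 3.69 to 58.6; adjusted p = 0.0245; not called without the first WT LPS library, where its log2 value was 3.51) and Mtss1 (log2 2.98 ± 0.54, adjusted p = 0.0282). Itgae (log2 2.66 ± 0.48, adjusted p = 0.0281; 1.74 without the first WT LPS library) and H2-DMa (log2 2.14 ± 0.32, adjusted p = 0.0156) were also higher in KO LPS cells.

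Several of the named genes that were lower in KO LPS cells rested on few cells. Ccl2, a monocyte chemoattractant, had 19.2 and 0 CPM in KO LPS, 428 and 181 in WT LPS, 2.01 in KO vehicle and 0 in WT vehicle. Ccl2 differed by log2 −4.46 ± 0.61 (adjusted p = 0.00742). One cell held 162 of the 197 UMIs of the first WT LPS library and 1 cell 38 of the 44 of the second, while the second KO LPS library held none, so that without the first no KO UMI remained. Hmox1, heme oxygenase 1, had 9.59 and 10.5 CPM in KO LPS, 135 and 378 in WT LPS, 28.2 in KO vehicle and 2.09 in WT vehicle. Hmox1 differed by log2 −4.62 ± 0.60 (adjusted p = 0.00742), with 1 cell holding 87.1% and 93.5% of the UMIs of the WT LPS libraries. Ccl7, another monocyte chemoattractant, had 0 and 5.25 CPM in KO LPS, 111 and 135 in WT LPS, 0 in KO vehicle and 0 in WT vehicle. Ccl7 had a KO to WT ratio of 0.0104 (95% counting interval 0.000259 to 0.0593; adjusted p = 0.0068), and all 33 UMIs of the second WT LPS library were in 1 cell. Ccl12 differed by log2 −4.34 ± 0.74 (adjusted p = 0.0245) and was not called without the first WT LPS library (−3.29), and the same was so for Adora2b (log2 −3.28 ± 0.60, adjusted p = 0.0285; −3.47). Serpinb2, a protease inhibitor, had a ratio of 0.0126 (95% counting interval 0.000315 to 0.0726; adjusted p = 0.00805), with 1 cell holding 70.7% and 64.3% of the WT LPS UMIs. Il1rn (log2 −2.03 ± 0.28, adjusted p = 0.00742), Il2ra (log2 −1.91 ± 0.33, adjusted p = 0.0251) and Gbp5 (log2 −1.35 ± 0.26, adjusted p = 0.04) were called lower as well, although Gbp5 was not called without either KO LPS library (−1.47 and −1.27), and Il1rn was spread over 17 and 12 WT LPS cells.

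In 2 subsets of the gated cells no gene was called between the genotypes. Among Ccr7-high cells of the LPS libraries (13 and 4 in KO, 14 and 20 in WT) edgeR called 0 of 2921 genes, with 119 at an unadjusted p below 0.05. Of the 31 called genes that could be tested there, 28 kept their direction, and their median change in that direction was 0.84, against 1.91 in all gated cells. Among cells with Xist and no Y-linked UMI, 0 of 3320 genes were called, with 184 at an unadjusted p below 0.05, and 36 of 37 tested genes kept their direction with a median of 1.52 against 1.92. These subsets hold fewer cells, down to 4 in a library, so the lack of calls does not show that the genotypes were alike. They are also part of the cells behind the calls. Of the WT LPS gated cells, 14 of 21 and 20 of 22 were Ccr7-high, and 20 and 17 held Xist only. A kept direction is therefore no separate support. DESeq2 was not run on the subsets. Ccr7-low cells could not be compared, with 2 cells in each WT LPS library.

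**Figure D5:**
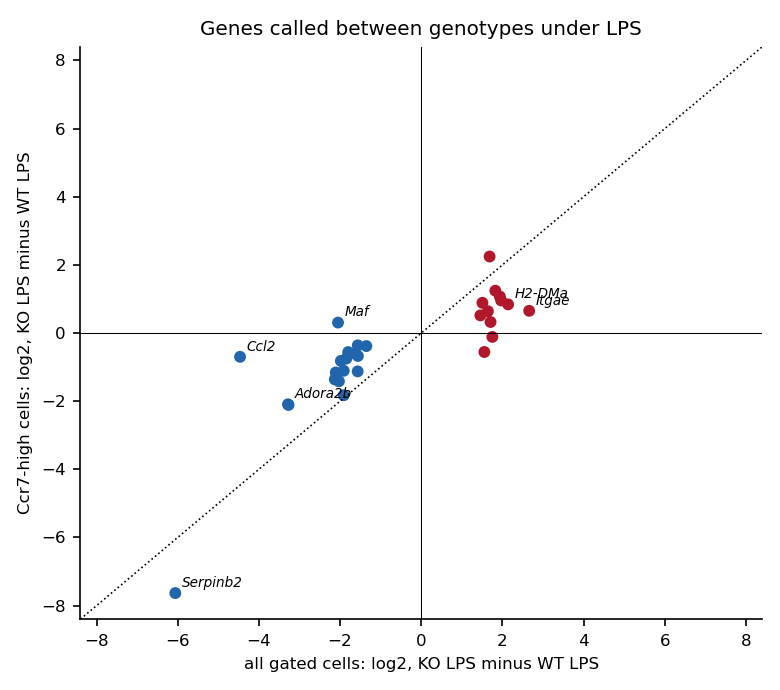
The 31 genes called between KO LPS and WT LPS in all gated cells that could be tested in Ccr7-high cells: log2 difference in all gated cells (horizontal axis) against that in Ccr7-high cells (vertical axis); red genes were called higher and blue genes lower in KO, and the dotted line marks equal differences. Most points lie nearer to 0 on the vertical axis, such as Itgae at 2.66 and 0.65 and Ccl2 at −4.46 and −0.70.

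The size of the LPS response itself differed between genotypes in 5 genes (0.0732% of 6826; 0.0439% more positive and 0.0293% more negative in KO), of which S100a8 and S100a9 are gate genes. The others were Xist, Sept3 and Hmox1, and with gate genes left out the 5 smallest p-values also took in Tlr3 (adjusted p = 0.0522) and the Y-linked Ddx3y (adjusted p = 0.166). Nos1 had no UMI in any gated cell and 4, 4, 0, 1, 5 and 2 UMIs in the whole KO LPS, WT LPS, KO vehicle and WT vehicle libraries, so its level could not check the genotype labels. Of the 56 genes called between genotypes none lay within 10 Mb of Nos1 (chr5:117781032-117958840, GRCm38), where 110 tested genes lie.

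The vehicle libraries, 1 a genotype, are given as values without a test. Xist had 622 UMIs in KO vehicle gated cells and 0 in WT vehicle cells. Col3a1, a fibroblast collagen, had 52 and 1 UMIs and the histone gene Hist1h2ap 170 and 7. On the other side, Il1b had 21 UMIs in KO vehicle and 51 in WT vehicle cells, or 24.3 plain CPM (exact 95% Poisson interval 15 to 37.2) against 121 (90.4 to 160). S100a4 had 89.1 plain CPM (70.3 to 111) in KO vehicle and 279 (230 to 334) in WT vehicle, and Ifitm2 50.9 (37.0 to 68.4) and 148 (113 to 189). These intervals cover counting error only. In WT vehicle 1 cell held 26 of the 51 Il1b UMIs, and 2 cells held 342 of the 351 S100a8 and S100a9 UMIs of the gate. The bound on RNA from outside the cells was 42.3% of the gate's UMIs in WT vehicle and 1.23% in KO vehicle. What such RNA or cells add to the Il1b, S100a4 and Ifitm2 values was not tested.

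As a share of cells past the filter, the gated cells made up 0.363% and 0.250% in the KO LPS libraries and 0.195% and 0.182% in the WT LPS libraries, against 0.756% in KO vehicle and 0.397% in WT vehicle. All 4 LPS shares were below both vehicle shares, with a log2 difference of means of −1.20 (exact permutation test, two-sided p = 0.0667, the smallest that 15 splits allow). The share of the cDC2 gate was also lower under LPS (log2 −1.41, p = 0.0667 by the same exact test) and the mature dendritic cell gate was higher (log2 2.37, p = 0.0667 by the same exact test). The neutrophil gate held 2549 to 4696 cells of an LPS library and 375 and 393 of the vehicle libraries, and outside the neutrophil gate the difference was −0.62 (exact permutation p = 0.2), and as a share of cDC1 and cDC2 together it was 0.13 (exact permutation p = 0.667). A lower share and a lower capture of Xcr1 and Clec9a RNA per cell cannot be told apart here, since the gate counts those UMIs.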

How the data were processed

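Lung CD45-positive cells of 6 libraries were profiled by droplet single-cell RNA sequencing. The deposited files hold raw UMI counts per gene and barcode. Per the submitters' processing notes, Cell Ranger 6.1.0 and the mm10 build were used, and Seurat 4.1.0 and R 4.1.3 are also named. Of 32285 gene IDs 32158 matched GENCODE M21. Counts of gated cells were summed per library and tested with edgeR 4.0.16 (TMM scaling, filterByExpr by group, quasi-likelihood test, Benjamini-Hochberg adjustment, 4 groups, 2 residual degrees of freedom) in R 4.3.3; DESeq2 1.42.0 served as an alternative, and gating used Python 3.11.15. On simulated counts over 6594 genes for the LPS comparison, 96% of genes changed by log2 2 and 25% of those changed by log2 1 were recovered, and 0.109% of unchanged genes were called. The simulation gave every gene and library the same spread beyond counting error. It held no mixture of cell kinds and no genes resting on 1 cell, so these rates need not hold for the real libraries. Same-numbered LPS libraries did not deviate together across genes (correlation −0.02 across 6826 genes), and the main fits did not pair them. With few cells a library this correlation cannot decide whether they were handled together, which the labels do not give. Barcodes with the highest Scrublet scores, to 0.8% per 1000 barcodes, were left out only as an alternative. They include 7 of 42 and 1 of 21 gated cells of KO LPS and 5 of 21 and 0 of 22 of WT LPS. Of the vehicle cells they include 1 of 65 in KO and 1 of 41 in WT. In the first WT LPS library they take in its deepest gated cells (42713, 41619, 35278 and 32352 UMIs), so its sums lean on possible doublets. Without them 985 genes were higher and 749 lower under LPS. Leave-one-out, scaling, filter, gate and free-RNA alternatives were tried; the cell kinds, the low-S100 set and the sex-mark set were added after seeing the data. The members, gene lists and tests were chosen with earlier results of these data known. Named genes were the 10 largest rises and 10 largest falls under LPS past the threshold, with at least 100 CPM and 30 UMIs in the higher arm, LPS and vehicle libraries not overlapping and a free-RNA bound of at most 20%; up to 4 genes per list by p; 6 per direction for the genotype and cDC2 comparisons; 5 for the difference in response; 3 per direction for the vehicle pair; and 13 genes always. Not all of these are described. Itgae, and the genotype values of Itgae, H2-DMa, Il1rn, Il2ra and Gbp5, were added after their values were seen.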

Additional observations from a re-analysis of the deposited data

Results flagged for a closer look

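A genotype difference in the LPS response, tested as the interaction term in edgeR, was called for 3 genes other than gate genes. Xist differed by log2 −12.26 (adjusted p = 9.92e-05), with 622 UMIs in KO vehicle and 0 in WT vehicle gated cells. Sept3 differed by 4.80 (adjusted p = 0.0308) and by 3.89, not called, without the first WT LPS library. Hmox1 differed by −8.22 (adjusted p = 0.0359), with 1 cell holding 87.1% and 93.5% of its UMIs in the WT LPS libraries. Each genotype had 1 vehicle library, and their sex marks differed, so genotype, sex mark and library cannot be told apart in this term.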

How the results depend on the processing

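The LPS counts (974 higher, 509 lower) became 556 and 71 with DESeq2, 1676 and 1193 with a gate of at least 1 UMI of Xcr1 and Clec9a, and 465 and 164 in Ccr7-low cells; 993 were lower with plain library totals and 320 with a gate of at least 3 UMIs. Leaving out 1 library gave 417 to 1174 higher and 42 to 802 lower. The genotype counts under LPS (34 higher, 22 lower) became 138 and 133 with no low-count filter, 17 and 11 with at least 3 UMIs, 167 and 105 with at least 1 UMI, and 102 and 71 without Siglech cells. They were 0 and 0 in Ccr7-high cells and in Xist-only cells. DESeq2 called 10 higher; 14 were lower without C1q UMIs and 40 without the highest doublet scores; leaving out 1 library gave 27 to 205 higher and 17 to 158 lower. With the replicate number as a block, in the LPS libraries alone, 0 and 0 genes were called, against 31 and 18 there without the block. The labels do not say whether same-numbered libraries were handled together. The 5 genes that differed in response became 32 with no filter, 12 with at least 1 UMI, 1 without the highest doublet scores, 25 with the free-RNA bound subtracted and 10 without Siglech cells, and 12 to 87 without 1 library. Against cDC2, 59 higher and 8 lower became 133 and 29 with no filter, 36 and 3 with DESeq2, and 4 and 3 in Ccr7-low cells; 18 were lower with the free-RNA bound subtracted, and leaving out 1 library gave 17 to 198 and 1 to 77. The share difference of −1.20 became 0.13 over cDC1 and cDC2 together and −1.67 to −0.73 without 1 library. Signs turned for Tlr3 (0.16) and Itgae (0.041) in Ccr7-low cells of KO LPS against vehicle (−0.34 for each in all gated cells of those libraries), for Tlr4 with at least 1 UMI (0.13) and without 1 library (−0.020 to 0.21), and for Hmox1 in the difference of response with at least 1 UMI (0.35). The causes were not tested.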
